A study of Homo sapiens with 6 samples.

Results

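The alpha and beta globin loci were examined in the chromatin loops of HAP1, a human cell line with a mostly haploid genome that was obtained from KBM-7 chronic myeloid leukaemia cells. A loop here is a pair of anchors on 1 chromosome whose contact count exceeds that of its surroundings. Loops were taken as members when at least 1 anchor overlapped, by 1 bp or more, a window of 150 kb on chromosome 11 (hg19, 5200001 to 5350000, beta globin genes and locus control region) or a window of 160 kb on chromosome 16 (hg19, 100001 to 260000, alpha globin genes and upstream enhancers). Of 46849 loops on 23 chromosomes, 2 met this rule. Both lay at the alpha globin window, and the beta globin window held 0.

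The loops come from Micro-C, in which micrococcal nuclease cuts crosslinked chromatin down to nucleosomes before neighbouring ends are ligated and sequenced. The series has 1 group of 6 replicates of wild-type HAP1 cells, stained with the DNA dye Hoechst and sorted for diploid content. Nothing in the labels says whether they were separate cultures. Cells were fixed with 1% formaldehyde for 10 min and then for 45 min with 3 mM DSG, which links proteins over a longer reach. The loop list is a single one for the group and does not tell replicates apart, so no value below has a spread between cultures and no difference was tested. HAP1 cells are not erythroid, and globin RNA was not measured in the data used here.

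Haemoglobin joins chains from both loci, and each locus is a textbook case of genes governed by distant enhancers in red cell precursors. On chromosome 11, HBE1 encodes the embryonic chain, HBG1 and HBG2 the fetal chains, HBD a minor adult chain and HBB the main adult beta chain. Their locus control region is a group of enhancers beyond HBE1 that folds onto whichever gene is active, and boundary elements bound by the architectural protein CTCF flank the locus. On chromosome 16, HBZ encodes the embryonic chain, and HBA1 and HBA2 the fetal and adult alpha chains. Their enhancers lie upstream, mostly within introns of the neighbouring gene NPRL3, which encodes a part of the GATOR complex that restrains mTORC1.

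The order of genes was read by name from a RefSeq table of the GRCh38 assembly, in which all 8 globin genes were found. From low to high coordinates on chromosome 11 it runs from the olfactory receptor gene OR51V1 through HBB, HBD, the pseudogene HBBP1, the non-coding BGLT3, HBG1, HBG2 and HBE1 to the olfactory receptor pseudogene OR51AB1P and the gene OR51B4. The 5 beta-like genes are thus set among olfactory receptor genes, which are used in sensory neurons. On chromosome 16 the named genes run from MPG, a DNA repair glycosylase, through NPRL3, HBZ, HBZP1, HBM, HBAP1, HBA2, HBA1 and HBQ1 to LUC7L, a splicing factor. The 3 alpha globin genes examined are therefore set, with other globin genes such as HBM and HBQ1, among genes used in most cells. Loops have hg19 positions and the table does not, so which gene lies under an anchor is not given here.

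At the alpha globin window, 2 loops met at 1 shared anchor, and together they ran across most of the window. The shorter joined 115001 to 120000 with 155001 to 160000, a span of 40 kb between anchor midpoints. The longer joined the same anchor, 155001 to 160000, with 230001 to 235000, a span of 75 kb. All 3 anchors were 5 kb wide and lay inside the window. No loop of the list joined the outermost anchors, 115001 to 120000 and 230001 to 235000, to each other.

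**Figure D1:**
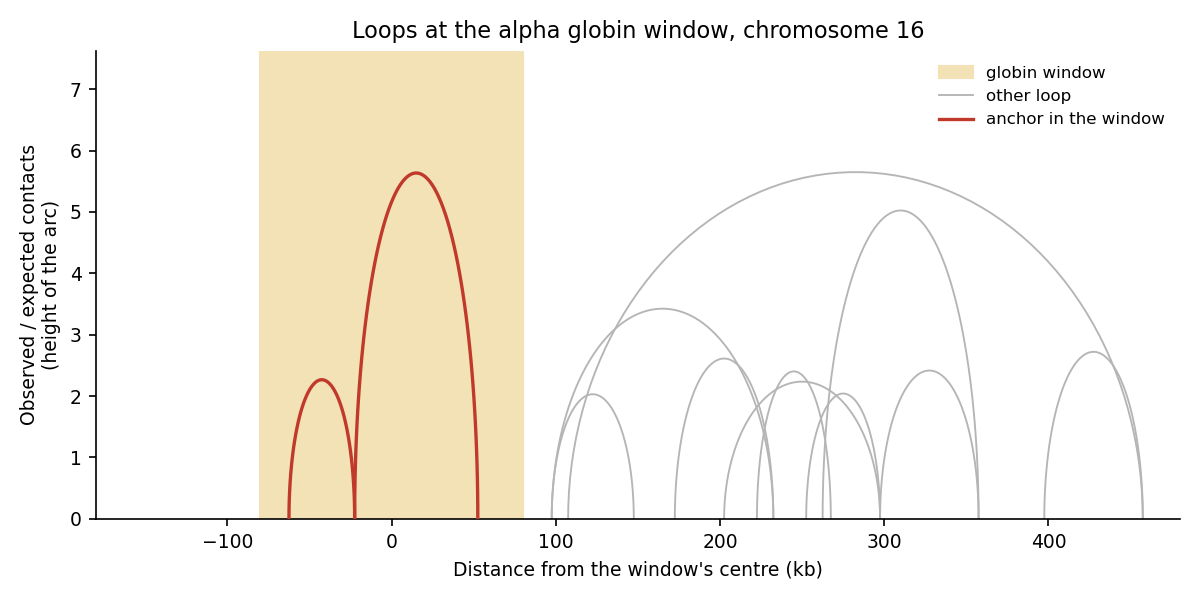
Loops along chromosome 16 at the alpha globin window, drawn as arcs between anchor midpoints against the distance from the window's centre in kb; the height of an arc is the ratio of observed to expected contacts. The 2 loops of the window (red) share an anchor and reach 2.27 and 5.64, and no arc joins them to the loops at higher coordinates (grey).

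The 75 kb loop had the higher count and ratio of the pair. Its pixel, the square of the contact map where both anchors cross, held 70 contacts (exact Poisson 95% interval 54.6 to 88.4, counting error only). The loop caller expected 12.4 contacts from the ring of pixels around it (the donut), 11.6 from the lower-left corner, 16.4 from the horizontal and 19.1 from the vertical neighbours. The ratio of observed to donut contacts was 5.64 (4.39 to 7.12, with the expectation held fixed). Against the largest of the 4 expectations it was 3.66. In the authors' deposited table its q-values, which are p-values adjusted by the caller, were 1.47e-20 for the donut and 1.33e-15 for the vertical neighbours.

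The 40 kb loop rose less above its surroundings. It had 46 contacts (33.7 to 61.4), more than the median of the list, where 20.3 were expected from the donut, 20.5 from the lower-left corner, 19.5 horizontally and 17.9 vertically. The ratio to the donut was 2.27 (1.66 to 3.02), an interval that does not meet that of the 75 kb loop. Against the largest expectation of each the intervals overlapped, at 1.65 to 3.00 for the 40 kb loop and 2.85 to 4.63 for the 75 kb loop. Its q-values in the authors' deposited table were 0.00226 for the donut, 0.00209 for the lower-left corner, 4.62e-05 horizontally and 4.55e-05 vertically. For both alpha globin loops none of the 4 q-values in the authors' deposited table exceeded 0.1, which held for 72.0% of all loops in the list.

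**Figure D2:**
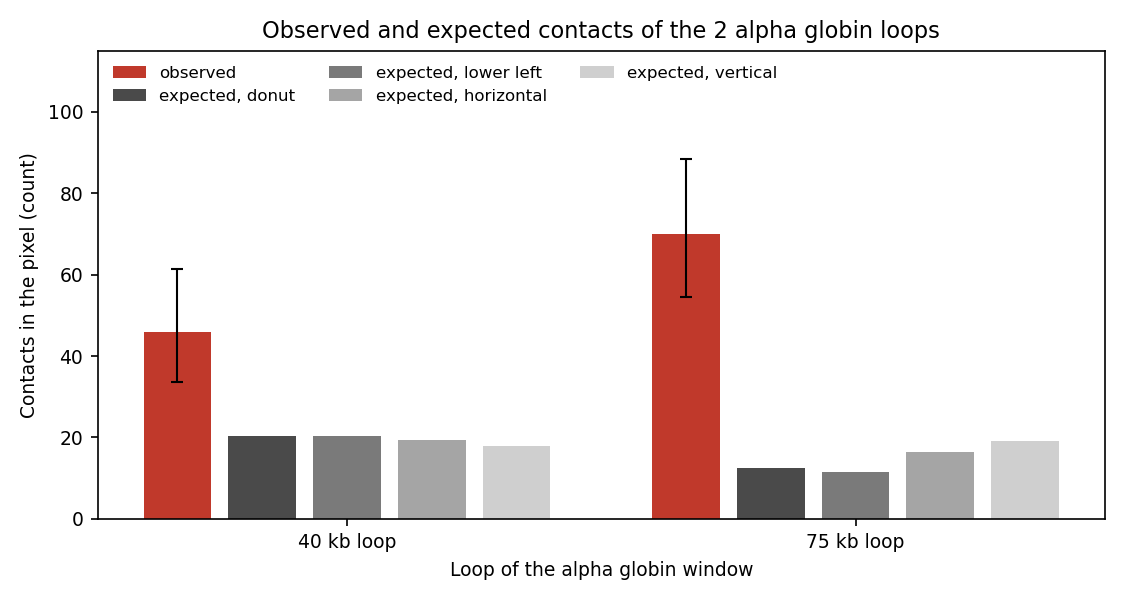
Contacts in the pixel of each alpha globin loop: observed count (red, with its exact Poisson 95% interval) and the 4 counts the loop caller expected from the surroundings (grey). The 75 kb loop has 70 contacts against at most 19.1 expected, and the 40 kb loop 46 against at most 20.5.

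Loops of like size put these values in scale. Among the 16497 loops under 100 kb with 5 kb anchors the median ratio was 2.65, and 5.91% reached that of the 75 kb loop. With spans within 10% of 75 kb there were 3013 other loops, with a median ratio of 2.88 and a median of 33 contacts. Of these, 9.06% had a ratio as high and 12.8% a count as high. For the 40 kb loop, 1799 others of that span had a median ratio of 2.39 and a median of 44 contacts, and 61.9% had a ratio as high. Against the largest of the 4 expectations the shares were 13.3% for the 75 kb loop and 35.2% for the 40 kb loop. By the donut ratio the 75 kb alpha globin loop was thus in the upper tail for its size and the 40 kb loop was ordinary.

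The signal of the 75 kb loop was also wide. It had been merged from 15 significant pixels with a cluster radius of 27.5 kb, where the median loop of like span had 3 pixels. Of the loops of like span, 8.0% had as many pixels. In the whole list, 4.09% of loops had as many pixels and 5.23% as large a radius. The centre of its cluster, at 166500 and 228500, lay 9 kb above the midpoint of its lower anchor and 4 kb below that of its upper one, so the merged pixels lay on balance towards the inside of the loop. The 40 kb loop had 6 pixels and a radius of 13.0 kb, and its centre lay at 114166 and 153333. With such a radius the deposited 5 kb anchors of the 75 kb loop mark its strongest pixel, not the extent of the contact.

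The pair was cut off from other loops. When overlapping anchors were merged over the whole list, the 2 alpha globin loops with their 3 anchors formed a network of their own, from 115001 to 235000. Of all loops, 13.7% belonged to networks of at most 2 loops, and the median loop sat in a network of 25. Between 160001 and 230000, inside the 75 kb loop, no anchor was listed. The next anchor at higher coordinates, 275001 to 280000, lay 15 kb beyond the window and held loops that ran away from it. No loop enclosed the window, which lies at the very end of the chromosome: the anchor at 115001 was the lowest position of any anchor in the list, followed by 135001 on chromosome 10.

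In number, 2 loops were few but not rare for such a stretch. Over 17476 windows of 160 kb laid end to end along the chromosomes, outside anchor-free stretches of 3 Mb or more, the median was 4 loops (quartiles 1 and 7), and 35.1% held 2 or fewer. In the 1 Mb above the alpha globin window 27 loops had an anchor, which is 4.32 per 160 kb. Their median span was 85 kb and their median ratio 3.36. The 100 kb between the window and the end of the chromosome held 0.

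**Figure D3:**
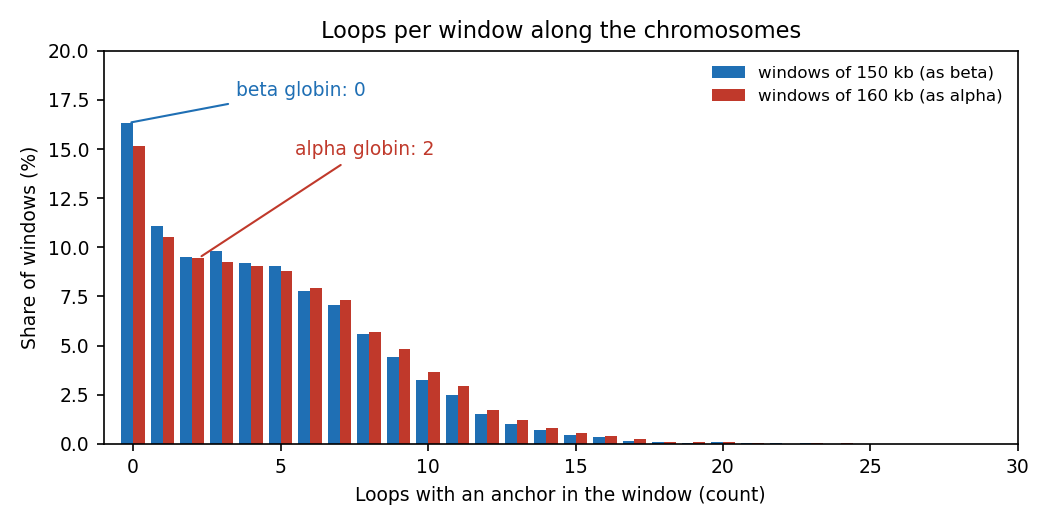
Share of windows (%) by the number of loops with an anchor in them, for windows of 150 kb (blue, the length of the beta globin window) and 160 kb (red, the length of the alpha globin window). The beta globin window, with 0 loops, falls in the most frequent class, and the alpha globin window, with 2, lies below the median of 4.

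At the beta globin window no loop began or ended, while 8 loops passed over it. The nearest anchors, 5145001 to 5150000 and 5400001 to 5405000, lay 50 kb outside either edge of the window. They were joined to each other by a loop of 255 kb with 18 contacts (10.7 to 28.5) where the donut expected 2.28, a ratio of 7.88 (4.67 to 12.5). This was the smallest loop to enclose the locus. The genes from HBB to HBE1 and the locus control region therefore lay inside a loop whose ends were placed outside the window that holds them.

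The anchor-free stretch from 5150001 to 5400000 was 250 kb long. Of 47474 stretches between neighbouring anchors in the list, 2.53% were as long. With those of 3 Mb or more included, they made up 23.5% of the length between the first and the last anchor of the chromosomes. The median stretch was 30 kb. A window of 150 kb without an anchor was common: 16.3% of 18648 windows held 0, or 19.9% when stretches of 3 Mb or more were counted. The beta globin window thus shared its lack of listed loops with many others. The shortest loops in the list span 35 kb, so it holds no contact closer than that, and contacts between neighbouring globin genes were not assessed.

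To be passed over by 8 loops was less common. Among the 18648 windows of 150 kb outside anchor-free stretches of 3 Mb or more, the median was 2 enclosing loops. Of these windows, 6.06% had 8 or more. Among the 3043 windows without an anchor, 124 (4.07%) had as many. These shares describe the list, in which neighbouring windows share loops, and were not tested.

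The 8 loops were long, spanning 255 to 1735 kb with a median of 1182.5 kb, and long loops of the list have higher ratios and lower counts than short ones. Their ratios ran from 4.20 to 17.3 with a median of 14.2. Over all loops the median was 3.55, but among 5 kb loops of 1 Mb and over it was 8.48. Their observed counts ran from 9 to 30 with a median of 17, which is also the median of those 5 kb loops of 1 Mb and over. That class does not include the loops of 255, 680 and 755 kb or the one with 10 kb anchors. The classes of span and anchor width of those loops had median ratios from 4.32 to 6.27. The donut expectations of the 8 enclosing loops ran from 0.878 to 3.81. For 7 of the 8 none of the 4 q-values in the authors' deposited table exceeded 0.1, which held for 72.0% of all loops. The loop of 1260 kb was among the 7 only narrowly, with a largest q-value of 0.0991. Anchors of 5 kb were found in 7 of the 8, and in 39722 of all 46849 loops.

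The highest ratio belonged to a loop of 755 kb from 4645001 to 4650000 to 5400001 to 5405000. It had 30 contacts (20.2 to 42.8) against 1.73 expected, a ratio of 17.3 (11.7 to 24.7). A loop of 680 kb from 5145001 to 5150000 to 5825001 to 5830000 had 21 contacts (13.0 to 32.1) against 1.25, a ratio of 16.9 (10.4 to 25.8). Of the loops of like span, 2.06% and 1.66% reached these ratios. Against the largest of the 4 expectations the shares were 1.50% for the 755 kb loop but 13.6% for the 680 kb loop. Both loops thus start or end at one of the anchors next to the beta globin window and run far beyond its other side.

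The longer loops over the locus came from 2 places far below it. From 4205001 to 4210000, a loop of 1195 kb reached 5400001 to 5405000 with 16 contacts (9.15 to 26.0; ratio 14.7). From the same start, one of 1620 kb reached 5825001 to 5830000 with 12 contacts in a single pixel (6.20 to 21.0; ratio 13.7). A loop of 1170 kb from 4655001 to 4660000 also ended at 5825001 to 5830000, with 21 contacts (13.0 to 32.1; ratio 14.9). The upper ends of these loops thus coincided with those of the shorter loops over the locus.

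The remaining 2 were the least certain. A loop of 1260 kb with 10 kb anchors, from 4650001 to 4660000 to 5910001 to 5920000, had 16 contacts and a ratio of 4.20 (2.40 to 6.82), close to the median of 4.03 for loops of like span and width. The longest, 1735 kb from 4645001 to 4650000 to 6380001 to 6385000, had 9 contacts (4.12 to 17.1) and a ratio of 8.13, below the median of 9.62 for its span. Its donut q-value in the authors' deposited table was 0.161. The q-values of the 1260 kb loop there were 0.0991 horizontally and 0.0933 vertically, just within 0.1.

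**Figure D4:**
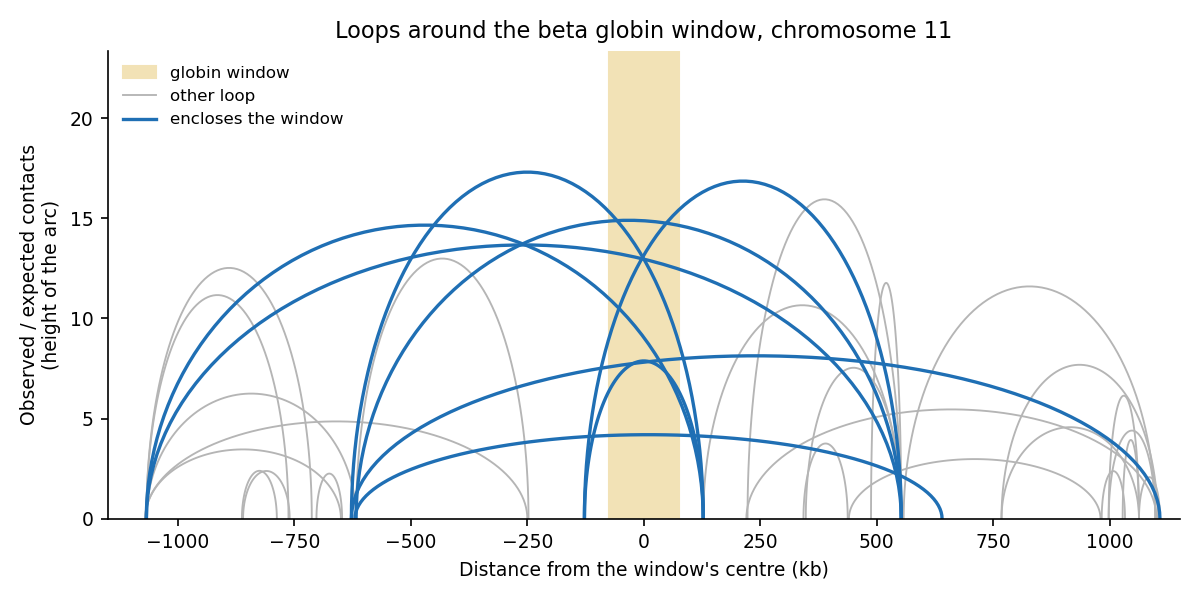
Loops along chromosome 11 around the beta globin window, drawn as arcs between anchor midpoints against the distance from the window's centre in kb; the height of an arc is the ratio of observed to expected contacts. The 8 enclosing loops (blue) pass over the window, in which no arc ends, and 6 of them end at 2 anchors, beginning at 5400001 and 5825001.

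Both upper ends were used repeatedly. The anchor 5400001 to 5405000 held 4 loops, 3 of them over the globin window and 1 to higher coordinates, with ratios from 7.88 to 17.3. Of all merged anchors, 13.2% held as many. The anchor 5825001 to 5830000 held 7 loops, all to lower coordinates, with spans from 65 to 1620 kb, ratios from 7.54 to 16.9 and 10 to 29 contacts. The 65 kb loop among them had 10 contacts, where loops of like span had a median of 37. Its horizontal and vertical q-values in the authors' deposited table, 0.250 and 0.255, exceeded 0.1. Only 1.63% of merged anchors held 7 or more. On the far side, the merged anchor 4200001 to 4210000 also held 7 loops, all to higher coordinates, 2 of them over the globin window.

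Anchors on both sides of the locus closed 3 triangles, in which each of 3 anchors is joined to both others. One consisted of the anchors beginning at 5145001, 5400001 and 5825001, and another of those at 4200001, 5400001 and 5825001. The third consisted of 4200001, 4650001 and 5825001. Each of these 3 included the anchor at 5825001, and in each at least 1 side passed over the beta globin genes. The anchors 4645001 to 4650000 and 4650001 to 4660000 abut without overlap and were kept apart. Joined, they would also close a triangle with the anchors at 4200001 and 5400001, which leaves out the anchor at 5825001. A rate of triangles over the whole list is not given here. In contrast to the alpha globin pair, the 8 enclosing loops belonged to a network of 29 loops and 24 anchors between 4200001 and 6385000. That size was ordinary, since the median loop of the list sat in a network of 25.

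At the anchor 5825001 to 5830000, the vertical neighbours, one of the caller's strips through the pixel, gave a higher expectation than the horizontal ones in 6 of 7 loops. Over all loops this held in 50.4%. For the 680 kb loop over the beta globin window the values were 2.96 vertically and 0.994 horizontally, so that its ratio fell from 16.9 against the donut to 7.08 against the vertical neighbours. For the 1170 kb loop they were 3.30 and 1.64, and the ratio against the vertical neighbours was 6.36. Taken against the largest of the 4 expectations, the median ratio of the 8 loops was 6.77 instead of 14.2. Each of the 8 still lay above the median of loops of like span and width on that measure, and so did both alpha globin loops. On the donut measure 7 of the 8 did.

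Contact depth was lower in the loops over the beta globin window than in the alpha globin loops. Depth was the log2 of a 5 kb loop's donut expectation over the median of the 5 kb loops in the same 1 of 40 span bins. At the alpha globin window it was 0.15 for the 40 kb loop and 0.11 for the 75 kb loop, 1.11 and 1.08 times the level of like loops. The 7 enclosing loops with 5 kb anchors at the beta globin locus lay between -1.34 and -0.48 with a median of -0.85. The loops of 1170, 1195, 1620 and 1735 kb fell in 1 wide bin and were set against the same median. Loops within 10% of these spans had median donut expectations of 2.235, 2.195, 1.699 and 1.594. The 4 enclosing loops had 1.41, 1.092, 0.878 and 1.106, so they were lower by that measure too. The high ratios of the enclosing loops thus went with expectations below those of like loops. Their counts exceeded the median of like loops in 3 of 8 cases only, and the part of the low expectation in the high ratios was not tested.

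In the megabase below the beta globin window 17 loops had an anchor, and in that above it 24, which is 2.55 and 3.60 per 150 kb. Of these, 8 and 7 were the enclosing loops, which are longer than the window by definition. Among the other loops, 3 of 9 below and 7 of 17 above (33.3% and 41.2%) were no longer than the window, against 49.0% of all loops. Their median ratios were 4.86 and 4.57. The depth of those with 5 kb anchors was 1.23 times that of like loops below the window (6 loops) and 0.792 times above it (15 loops). Above the alpha globin window, 18 of 27 loops (66.7%) were no longer than that window, against 50.7% of all, and the depth was 0.894 times that of like loops. With so few loops these shares are descriptions and were not tested.

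**Figure D5:**
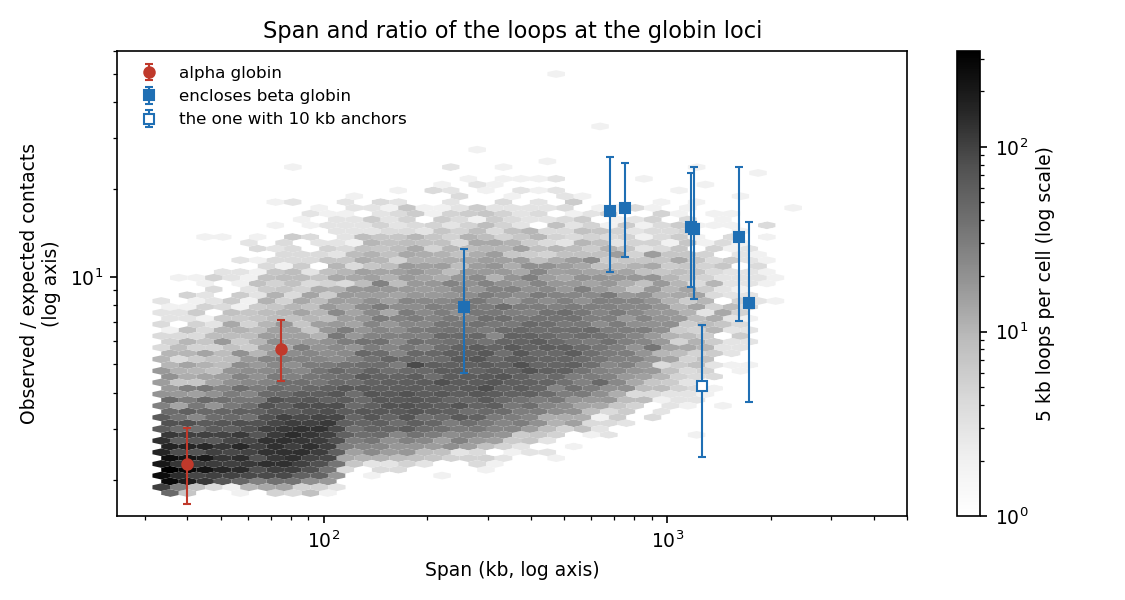
Ratio of observed to expected contacts against span (both axes logarithmic) for 5 kb loops of the list (grey cells, 114 loops above a ratio of 60 or a span of 5 Mb left out), the alpha globin loops (red) and the loops that enclose the beta globin window (blue, open where the anchors are 10 kb wide), with exact Poisson 95% intervals of the count. The alpha globin loops lie at 40 and 75 kb with ratios of 2.27 and 5.64, and the enclosing loops at 255 to 1735 kb with ratios of 4.20 to 17.3.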

How the data were processed

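The authors deposited 1 list of loops for the 6 Micro-C replicates. Per the file headers it was made with juicer_tools 1.22.01, and its columns are those of the HiCCUPS caller. The submitters' processing notes name BWA and hg19. Pooling, total depth and caller settings were not given in the sources used here. Observed contacts were deposited by the authors as raw counts, beside 4 contact counts expected from the surroundings and q-values (adjusted p-values). The number of merged pixels and the cluster radius in bp are other deposited values. Starts were shifted by 1 to print 1-based positions.

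Loops were selected by position with Python 3.11.15, numpy 2.4.6, pandas 2.3.3 and scipy 1.17.1, and drawn with matplotlib 3.10.9. Strength is the observed count over the donut expectation. The depth of the list was a median of 31 contacts a loop (quartiles 21 and 48, range 8 to 1756). Intervals are exact Poisson 95% intervals of the count and cover counting error only. Anchors that overlap by 1 bp were merged. For depth, like span means 1 of 40 span bins, and elsewhere a span within 10% and the same anchor width. All loops in or over a window are named. No hypothesis test was run, since the list has no replicates. The functions were tested on simulated loops. The windows, genes and rules were chosen with earlier results of these data known. The comparison within 10% of span, the enclosing loops, networks, triangles and anchor-free stretches were added after the data had been seen. Alternatives concerned the window's edges, anchor width, q-values, expectation and merging distance.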

Additional observations from a re-analysis of the deposited data

How the results depend on the processing

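Of 38 alternative values, 32 stayed within 1.5 times (counts) or within the spread of the value reported. This share is no measure of stability, because several of these values could not move. Both alpha globin loops have 5 kb anchors and q-values within 0.1, so those filters leave them unchanged. For the alpha globin ratio, span and depth the spread was the standard deviation of only 2 loops, which is wide for the ratio and span. The 14 added after seeing the data are the enclosing loops, the window 100 kb wider, the shifted windows and the megabase on each side of the beta globin window. With the enclosing loops counted there, 17.6% of loops below and 29.2% above were no longer than the window, against 33.3% and 41.2% without them. The count at the beta globin window was 0 under the 6 other settings that changed anchors, edges by 25 kb, width, q-values or counting, and 5 with a window 100 kb wider on each side. Those 6 settings could not have given another count. Stricter rules leave 0 at 0, and the nearest anchors lay 50 kb from the window, out of reach of a widening by 25 kb. The count at the alpha globin window was 2, but 4 with a window 25 kb wider and 6 with one 100 kb wider, since anchors from 275001 upward then fall inside. The alpha globin depth (median 0.13 on the log2 scale) was 0.10 from the lower-left expectation and 0.57 from the observed counts. The median ratio of the enclosing loops fell from 14.2 to 6.77 against the largest of the 4 expectations, as it must where another expectation is larger. Medians of strength, span and depth at the beta globin window have no value, since it holds 0 loops. No paired analysis was possible because the list has 1 group and no column per replicate, and no replicate could be left out. With 9 to 30 contacts, the enclosing loops are known less precisely than the alpha globin loops.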
